A study of Mus musculus with 8 samples.

Results

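Tetraspanins are small membrane proteins, and their transcripts were followed here in mouse pancreatic ductal adenocarcinoma (PDAC) cells. The genes were taken by name, as every gene of the count table called Tspan followed by a number, together with *Cd9*, *Cd37*, *Cd53*, *Cd63*, *Cd81*, *Cd82*, *Cd151*, *Upk1a* and *Upk1b*. This gave 31 genes of 53465, of which 29 encode proteins. The remaining pair, *Tspan32os* and *Tspan2os*, are antisense RNAs that encode no tetraspanin. Of the 31 genes, 23 were detected, that is, had 10 or more counts in at least 2 of the 8 libraries, and the same 23 were tested among 14301 genes.

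Tetraspanins cross the membrane several times, expose a large extracellular loop, and bind one another and other membrane proteins sideways, so that integrins, growth factor receptors and proteases are gathered into shared patches of the plasma membrane. The TspanC8 subfamily escorts the protease ADAM10 to the cell surface and steers it towards different substrates, such as Notch receptors and E-cadherin. CD9, CD63 and CD81 are enriched on extracellular vesicles, CD82 is known as a suppressor of metastasis, and TSPAN8 is known for its high levels in pancreatic and colorectal carcinomas.

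RNA-seq was performed on 2 lines, B73 and B87, each derived from a primary tumor of the KC-shSmad4 mouse. This mouse carries *Ptf1a*-Cre, which acts in pancreatic cells, a Rosa26 allele giving the transactivator rtTA3 with the reporter mKate2, and a doxycycline (Dox)-inducible, GFP-linked short hairpin RNA (shRNA) against *Smad4* at *Col1a1*. SMAD4 is the partner that SMAD2 and SMAD3 need for much of the transcriptional response to TGFβ. All 8 libraries share these alleles, and the hairpin that each line carries is not given in the sources used here. The 4 groups were Smad4 off (kept on Dox) or Smad4 on (5 days without Dox), each treated for 24 h with 100 pM TGFβ1 or with 2.5 µM SB505124, which blocks the kinase of the TGFβ type I receptor. Each group held 2 libraries, 1 per line, so the spread within a group is the spread between lines. No untreated cells were included, so TGFβ1 and SB505124 were compared with each other, and the return of *Smad4* and the removal of Dox cannot be told apart.

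Libraries held 18389235 to 23440550 counts. *Smad4* stood at 33.7 to 35.5 CPM (counts scaled to a common library total by TMM normalization) in the 4 Smad4-off libraries and at 97.4 to 117 CPM in the 4 Smad4-on libraries, as labelled, a log2 fold change of 1.73 ± 0.09 (SE) under TGFβ1 and 1.62 ± 0.09 under SB505124. Of 7 epithelial markers all were detected, although *Epcam* reached only 0.153 to 2.11 CPM, and *Cdh1*, which encodes E-cadherin, ranged from 11.5 to 469 CPM. Their summed level was 3944 to 6209 CPM in B73 and 1218 to 2109 CPM in B87. None of 8 leukocyte markers was detected, and *Ptprc*, the pan-leukocyte marker, had at most 3 counts. Of 5 fibroblast markers 3 were detected, with *Lum* at 0 and *Dcn* at 3 counts or fewer in every library, and their summed level was 3.08 to 37.0 CPM in B73 and 38.6 to 652 CPM in B87. Of 3 endothelial markers 2 were detected (summed 0.648 to 26.0 CPM) and of 4 acinar markers 1 (summed 0.499 to 1.37 CPM).

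Of the 8 genes that were not detected, *Tspan11* came closest, with 1 to 25 counts per library, while *Tspan33*, with 3 to 15, and *Upk1a*, with 6 to 21, were just above the limit. The TspanC8 gene *Tspan10* had at most 1 count, *Tspan18* at most 1, *Tspan1* and the leukocyte gene *Tspan32* at most 4 each, and the leukocyte gene *Cd37* at most 3. The antisense RNA *Tspan32os* had at most 2 counts and *Tspan2os* at most 1. Counts of members that passed a test are over the 23 detected genes and not over all 31.

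RefSeq promoter windows (GRCm38.p6) matched 28 of the 31 genes, 22 of the detected ones. *Tspan8*, *Tspan5* and *Tspan15* fell with TGFβ1 and were lower again with Smad4 on than off under TGFβ1, and *Tspan13* fell with TGFβ1, so the stretches before their RefSeq start are printed, 5′ to 3′ on the strand of the gene and without bases that GENCODE M21 places in exons. They are chr10:115817034-115817270 on the + strand for *Tspan8*, chr3:138741958-138742194 on the + strand for *Tspan5*, chr10:62231252-62231468 on the − strand for *Tspan15* and chr12:36042501-36042728 on the − strand for *Tspan13*. The RefSeq start of *Tspan8* lies 452 bases from the start of the gene in the deposited annotation. The distance was larger for *Cd63* (8356 bases) and *Tspan3* (4407 bases), which are among the 22 genes. Capitals mark CAGACA, a form of the SMAD-binding element.
Tspan8: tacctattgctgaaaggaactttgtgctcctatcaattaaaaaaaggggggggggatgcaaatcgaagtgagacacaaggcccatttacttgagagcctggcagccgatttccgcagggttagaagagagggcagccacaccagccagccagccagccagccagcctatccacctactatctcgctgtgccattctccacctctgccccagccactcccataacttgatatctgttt
Tspan5: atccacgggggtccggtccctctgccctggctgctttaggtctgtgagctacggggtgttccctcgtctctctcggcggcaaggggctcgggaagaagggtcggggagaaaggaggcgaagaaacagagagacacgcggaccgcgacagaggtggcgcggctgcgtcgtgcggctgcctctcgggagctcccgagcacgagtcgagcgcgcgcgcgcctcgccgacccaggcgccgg
Tspan15: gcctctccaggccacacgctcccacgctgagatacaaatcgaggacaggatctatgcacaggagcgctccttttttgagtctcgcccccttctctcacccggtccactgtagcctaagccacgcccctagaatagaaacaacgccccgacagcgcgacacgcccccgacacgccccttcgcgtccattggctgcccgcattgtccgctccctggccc
Tspan13: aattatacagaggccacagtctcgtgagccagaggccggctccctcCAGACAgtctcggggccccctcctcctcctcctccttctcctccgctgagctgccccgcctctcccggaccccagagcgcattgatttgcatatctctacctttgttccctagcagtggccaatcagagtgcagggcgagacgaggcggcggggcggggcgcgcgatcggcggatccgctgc

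A search of the 250 bases before the RefSeq start, on both strands, found CAGACA in 1 of 22 members (*Tspan13*) against 17.1% of 32851 promoters. The SMAD palindrome GTCTAGAC was found in 0 of 22 members against 0.167% of promoters. TGANTCA, the AP-1 motif, was found in 1 of 22 members (*Tspan15*) against 6.75%. Its match ends 6 bases before the RefSeq start and is shown in capitals, from chr10:62231219-62231248 on the − strand, because it lies in bases that GENCODE counts as exon.
Tspan15 site: cggtgattgcggcgcgccTGAGTCAgtcca
GGGCGG, the core of the SP and KLF motif, was found in 12 of 22 members against 32.7% of promoters. None of these 4 motifs contains another, and a match is only a match of letters.

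Levels of different genes were compared per length, as CPM per kilobase of merged exons. *Tspan8* was highest on average at 158 ± 110 CPM per kilobase (SD, n = 8 libraries), with a range of 12.0 to 314. *Cd9*, which binds integrins and growth factor precursors, followed at 118 ± 12.4, *Cd63*, a lysosome and exosome tetraspanin, at 116 ± 19.9, *Cd151*, the partner of laminin-binding integrins, at 97.5 ± 17.8 and *Cd81* at 95.3 ± 12.9 CPM per kilobase (each SD, n = 8). *Cd9* and *Cd63* did not differ beyond their spread, nor did *Cd151* and *Cd81*, and the range of *Tspan8* reached both above and below all of them. Next came *Tspan4* at 61.4 ± 12.9 CPM per kilobase, and a middle class from *Tspan9* (26.2) through *Tspan31*, *Tspan14*, *Tspan3* and *Cd82* to *Tspan15* (11.0). The lowest means were those of *Cd53* (0.613), *Upk1a* (0.440) and *Tspan33* (0.0821).

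**Figure D1:**
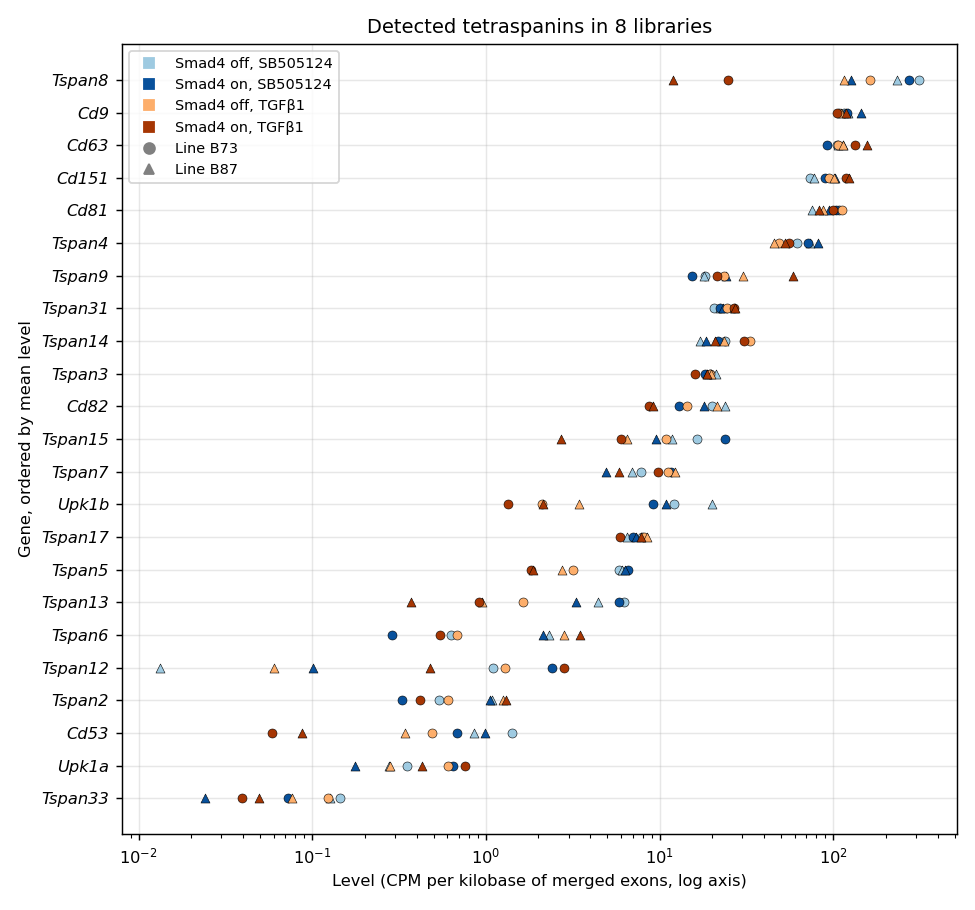
Level of each of the 23 detected tetraspanins (rows, ordered by mean) on a log axis in CPM per kilobase of merged exons. Each point is 1 library, colour gives the group and shape the line. *Tspan8* spans 12.0 to 314, while *Cd9* keeps within 105 to 145.

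The 31 genes together took 0.257% and 0.234% of all counts (B73, then B87) with Smad4 off under SB505124 and 0.245% and 0.229% with Smad4 on. Under TGFβ1 they took 0.221% and 0.210% with Smad4 off and 0.183% and 0.201% with Smad4 on. *Tspan8* alone made up 21.8% and 17.8% of tetraspanin counts with Smad4 off under SB505124, but only 2.14% and 0.949% with Smad4 on under TGFβ1. In both lines the total and the share of *Tspan8* were lowest with Smad4 on under TGFβ1.

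The first question was which tetraspanins differ between TGFβ1 and SB505124 when Smad4 is on. A gene passed when its adjusted p from edgeR's quasi-likelihood test with the line in the model was under 0.05, and was called when it also changed over 2-fold. In Smad4-on cells 12 of 23 tetraspanins passed (52.2%) against 33.2% of all tested genes. Of these, 8 fell, against 17.6% of all genes, and 4 rose, against 15.6%. The 6 called genes (26.1%, against 13.9% of all genes in either direction and 8.31% called lower) all fell. These were *Tspan8*, *Tspan13*, *Upk1b*, *Tspan5*, *Tspan15* and *Cd53*. In Smad4-off cells 8 passed (34.8%), 6 lower and 2 higher, against 13.2% of all genes, 6.24% lower and 6.96% higher. Of them *Upk1b*, *Tspan13* and *Tspan5* were called, all 3 lower (13.0%, against 5.93% in either direction and 2.82% called lower). The summed fibroblast markers were higher under TGFβ1 than under SB505124 in all 4 pairs of libraries, at 37.0 against 12.8 CPM (B73) and 207 against 38.6 CPM (B87) with Smad4 off, and at 7.55 against 3.08 CPM and 652 against 134 CPM with Smad4 on. The summed epithelial markers were lower in all 4, at 3944 against 4016 CPM and 1301 against 2109 CPM with Smad4 off, and at 5790 against 6209 CPM and 1218 against 1690 CPM with Smad4 on. Their part in the results for TGFβ1 was not tested. In bulk RNA, fewer cells with a transcript and less of it per cell cannot be told apart. The median log2 fold change of the 23 genes was −0.07 with Smad4 on and 0.05 with Smad4 off, beside −0.02 over all tested genes in both.

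With Smad4 on against Smad4 off under TGFβ1, the comparison that asks how the TGFβ1 state differs once *Smad4* is back and Dox is gone, 4 of 23 tetraspanins passed (17.4%) against 6.80% of all genes. All 4 fell, against 3.28% of genes lower, and 2 were called (8.70%), against 3.12% of all genes in either direction and 1.80% called lower. These were *Tspan8*, *Tspan15*, *Cd82* and *Tspan5*, the first 2 called. DESeq2 with the line passed 8, the same 4, *Tspan13* (lower), and *Cd63*, *Cd151* and *Tspan12* (higher). In edgeR *Cd63* changed by 0.40 ± 0.09 (adjusted p = 0.0520, in DESeq2 0.00194). *Tspan12*, with 4 and 31 counts in B87, changed by 1.78 ± 0.60 (adjusted p = 0.134, in DESeq2 0.0436). The median log2 fold change of the 23 genes was −0.17, beside −0.01 over all genes. Under SB505124 none of the 23 passed in edgeR, against 1.59% of all genes, although 5 had an unadjusted p under 0.05 and DESeq2 with the line passed 2. Each comparison shares libraries with another, for example the Smad4-on TGFβ1 pair, so they are not separate tests of a gene. In every comparison of groups, each member that passed had the same sign in both lines.

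With the line left out of the model (no replicate block), edgeR passed 6 tetraspanins for TGFβ1 in Smad4-on cells and 2 in Smad4-off cells. It passed 0 for Smad4 on against off under TGFβ1. DESeq2 without the line passed 10, 5 and 3 in the same order. Of 25 single-gene values that passed with the line, 8 still passed in edgeR without it and 19 in DESeq2 without it. For single genes the edgeR value without the line is given below wherever it ends the call. Where no method is named, "without the line" and "no replicate block" mean edgeR.

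**Figure D2:**
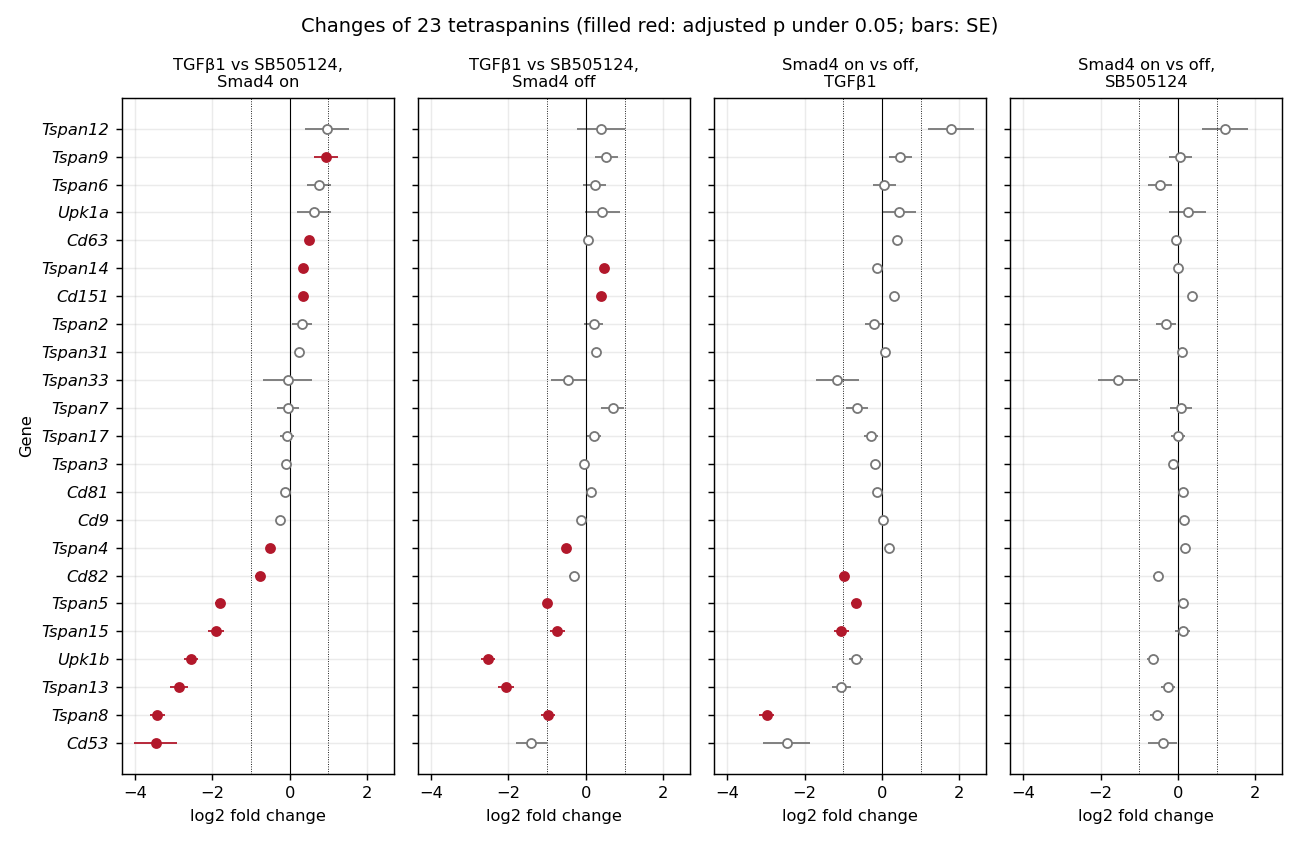
Log2 fold change of the 23 detected tetraspanins in 4 comparisons, with the standard error as bars and filled points for adjusted p under 0.05. Dotted lines mark a change of 2-fold. *Tspan8* lies at −3.42, −0.99 and −2.98 in the first 3 panels, and no point is filled in the last.

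Of the tetraspanins linked to integrins and growth factor receptors, *Tspan8* had the widest range. The gene lies on chromosome 10 (115816832 to 115849893, + strand, GRCm38). Under SB505124 it stood at 534 CPM in B73 and 399 CPM in B87 with Smad4 off, and at 463 and 214 CPM with Smad4 on. Under TGFβ1 it stood at 277 and 197 CPM with Smad4 off, and at 42.4 and 20.4 CPM with Smad4 on. Both Smad4-on TGFβ1 libraries lay below every other library.

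In Smad4-on cells *Tspan8* fell 10.7-fold with TGFβ1 (log2 fold change −3.42 ± 0.20 SE, adjusted p = 0.000109), to 9.16% of its SB505124 level in B73 and 9.55% in B87. In Smad4-off cells it fell by 0.99 ± 0.18 on the log2 scale (adjusted p = 0.0163), to 51.9% and 49.3%. That smaller fall did not pass without the line (adjusted p = 0.371), nor when the Smad4-off SB505124 library of B87 (0.0962) or the Smad4-off TGFβ1 library of B73 (0.117) or B87 (0.0625) was left out. Under TGFβ1 *Tspan8* was 7.88-fold lower with Smad4 on than with Smad4 off (−2.98 ± 0.20, adjusted p = 0.00116), to 15.3% of the Smad4-off level in B73 and 10.4% in B87. This passed with any of the 8 libraries left out (adjusted p 0.00126 to 0.00791), but not without the line (0.114). Under SB505124 the log2 fold change was −0.55 ± 0.18 (adjusted p = 0.264), with −0.21 in B73 and −0.90 in B87.

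The difference between the Smad4 on against off changes under the 2 treatments was tested as an interaction. *Tspan8* passed, at −2.43 ± 0.26 on the log2 scale (edgeR adjusted p = 0.0380), with −2.50 in B73 and −2.36 in B87. It was 1 of 23 tetraspanins (4.35%), against 0.196% of all genes and 0.140% lower. The adjusted p was 1.00 in edgeR without the line, 0.0130 in DESeq2 without the line and 3.70e-15 in DESeq2 with the line. With 1 library left out it passed only without the Smad4-on SB505124 library of B87 (0.0468), and otherwise ranged from 0.0509 to 0.147, while the log2 value stayed between −2.68 and −2.17. DESeq2 with the line also passed *Tspan15* (−1.17 ± 0.28 in edgeR, adjusted p = 0.218, in DESeq2 0.0101) and *Tspan5* (−0.80 ± 0.15 in edgeR, adjusted p = 0.141, in DESeq2 0.0164).

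**Figure D3:**
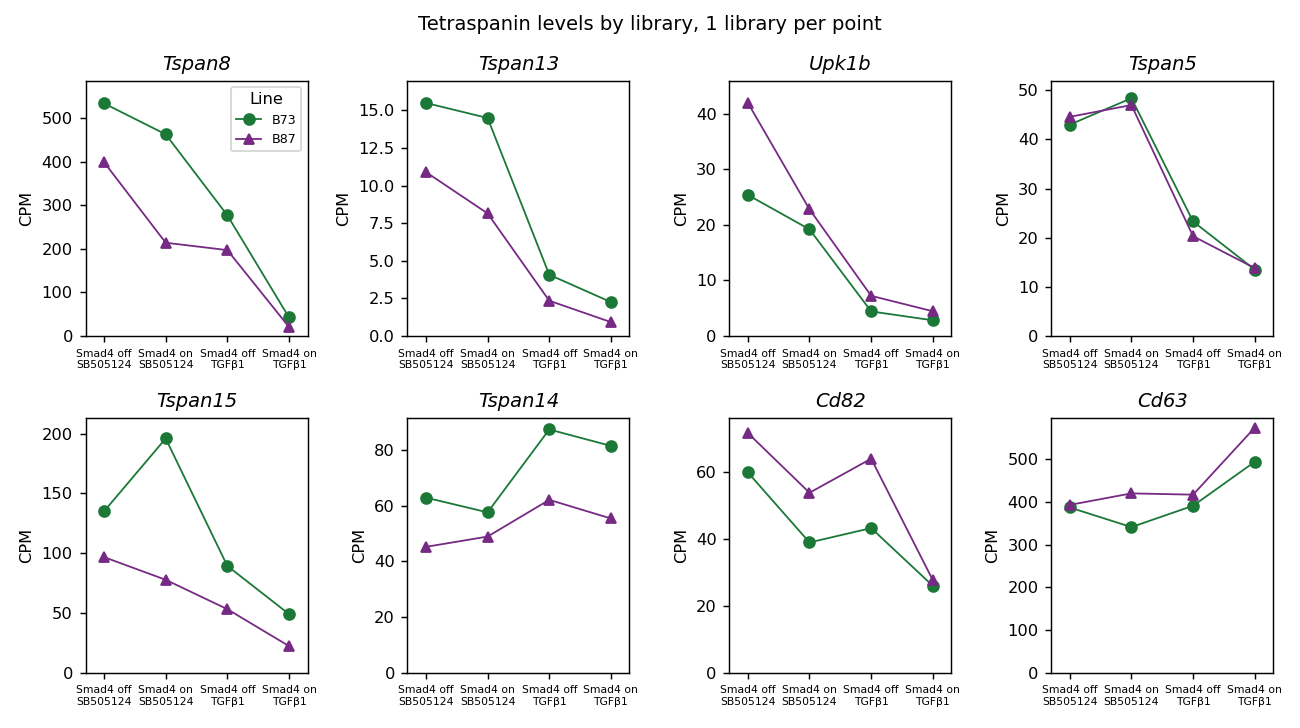
CPM (linear axes from 0) of 8 tetraspanins in each library, in the order Smad4 off and Smad4 on under SB505124, then Smad4 off and Smad4 on under TGFβ1. Each point is 1 library and each line of points 1 cell line. *Tspan8* drops between the last pair of conditions, from 277 to 42.4 CPM (B73) and from 197 to 20.4 CPM (B87).

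*Cd82* was lower with Smad4 on than off under TGFβ1. It stood at 43.3 CPM in B73 and 64.1 CPM in B87 with Smad4 off, and at 26.0 and 27.7 CPM with Smad4 on. Under SB505124 the values were 60.0 and 71.8 CPM with Smad4 off, and 39.0 and 53.9 CPM with Smad4 on. In both treatments the Smad4-on libraries lay below the Smad4-off libraries. Under TGFβ1 the log2 fold change was −0.97 ± 0.13 (adjusted p = 0.00895), which rose to 0.0622 without the Smad4-off TGFβ1 library of B87 and to 0.179 without the line. Under SB505124 it was −0.52 ± 0.13 (adjusted p = 0.135, in DESeq2 with the line 0.0374). In Smad4-on cells *Cd82* also fell with TGFβ1, by 0.77 ± 0.13 (adjusted p = 0.00485, without the line 0.0764). In Smad4-off cells the change was −0.31 ± 0.13 (adjusted p = 0.156).

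*Cd63* and *Cd151* moved the other way. *Cd63* stood at 341 CPM in B73 and 420 CPM in B87 with Smad4 on under SB505124, and at 494 and 574 CPM with Smad4 on under TGFβ1. With Smad4 off it stayed between 387 and 417 CPM in all 4 libraries, so both Smad4-on TGFβ1 libraries were above every other one. In Smad4-on cells it rose by 0.49 ± 0.09 with TGFβ1 (adjusted p = 0.00796), and this did not pass without the line (0.0554) or without the Smad4-on SB505124 library of B73 (0.0625). In Smad4-off cells its change was 0.05 ± 0.09 (adjusted p = 0.776), and the interaction, at 0.44 ± 0.13, had an adjusted p of 0.301. Of the 75-base stretches of *Cd63*, 6.47% also occur in the pseudogene *Cd63-ps*, which had 9 to 36 counts.

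*Cd151* stood at 201 CPM in B73 and 211 CPM in B87 with Smad4 off under SB505124, and at 245 and 279 CPM with Smad4 on. Under TGFβ1 the values were 260 and 278 CPM, then 324 and 339 CPM. Its level rose with TGFβ1 by 0.38 ± 0.08 in Smad4-off cells (adjusted p = 0.0214) and by 0.34 ± 0.08 in Smad4-on cells (adjusted p = 0.0150). Neither passed without the line (0.115 and 0.0642). The first did not pass without any 1 of the 4 Smad4-off libraries (0.0632 to 0.151). The second did not pass without the Smad4-on SB505124 library of B73 (0.101) or the Smad4-on TGFβ1 library of B73 (0.0829) or B87 (0.0537). With Smad4 on against off the log2 fold change was 0.30 ± 0.08 under TGFβ1 (adjusted p = 0.0646) and 0.35 ± 0.08 under SB505124 (adjusted p = 0.103), and DESeq2 with the line gave 0.00439 and 0.00180. Exons of *Cd151* share 193 bases with *Gm10575* on the opposite strand.

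*Cd9* and *Cd81*, the closely related vesicle tetraspanins, passed in none of the 4 comparisons of groups. *Cd9* kept within 215 to 246 CPM in the B73 libraries and 228 to 296 CPM in the B87 libraries, with log2 fold changes from −0.24 to 0.15. *Cd81* kept within 288 to 323 CPM in B73, above its 216 to 272 CPM in B87, with log2 fold changes from −0.13 to 0.14.

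Of the 5 detected TspanC8 genes, 3 passed for TGFβ1, with Smad4 on as well as with Smad4 off, against 33.2% and 13.2% of all genes. *Tspan5* and *Tspan15* fell, and *Tspan14* rose. *Tspan17* ranged from 9.80 to 14.1 CPM and passed in no comparison, and *Tspan33* stood at 3 to 15 counts per library.

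*Tspan5*, which with ADAM10 is known to favour Notch cleavage, stood at 43.0 CPM in B73 and 44.6 CPM in B87 with Smad4 off under SB505124, and at 48.4 and 47.0 CPM with Smad4 on. Under TGFβ1 it stood at 23.3 and 20.3 CPM with Smad4 off, and at 13.5 and 13.8 CPM with Smad4 on. The 4 TGFβ1 libraries lay below the 4 SB505124 libraries, and the lines differed little. With TGFβ1 it fell by 1.81 ± 0.11 on the log2 scale in Smad4-on cells (3.50-fold, adjusted p = 0.000114) and by 1.01 ± 0.11 in Smad4-off cells (2.01-fold, adjusted p = 0.00233). Both passed without the line (0.00156 and 0.0208) and with any library left out. Under TGFβ1 it was lower with Smad4 on than with Smad4 off (−0.68 ± 0.11, adjusted p = 0.0167), which did not pass without the line (0.0891) or without any 1 of the 4 TGFβ1 libraries (0.0610 to 0.176).

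*Tspan15*, which directs ADAM10 to N-cadherin, stood at 135 CPM in B73 and 96.7 CPM in B87 with Smad4 off under SB505124. With Smad4 on under SB505124 the lines moved apart, to 196 CPM in B73 and 77.7 CPM in B87. Under TGFβ1 it stood at 89.3 and 53.1 CPM with Smad4 off, and at 49.0 and 22.2 CPM with Smad4 on. Within each line, the Smad4-on TGFβ1 library was the lowest. In Smad4-on cells *Tspan15* fell 3.76-fold with TGFβ1 (−1.91 ± 0.20, adjusted p = 0.000747, without the line 0.0761), and this passed with any library left out.

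The other 2 falls of *Tspan15* were less stable. In Smad4-off cells it fell by 0.74 ± 0.19 with TGFβ1 (adjusted p = 0.0493), which did not pass with RLE size factors (0.0524), without the line (0.592), or without the Smad4-off SB505124 library of B87 (0.258) or any 1 of the 4 TGFβ1 libraries (0.0531 to 0.262). Without that SB505124 library the value was −0.42. With Smad4 on against off under TGFβ1 it fell 2.07-fold (−1.05 ± 0.20, adjusted p = 0.0287), which did not pass without the line (0.522) or without any 1 of the 4 TGFβ1 libraries (0.0888 to 0.151).

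*Tspan14*, the TspanC8 gene with the highest level per length, rose with TGFβ1. It stood at 62.9 CPM in B73 and 45.2 CPM in B87 with Smad4 off under SB505124, and at 87.4 and 62.1 CPM under TGFβ1. With Smad4 on it stood at 57.6 and 48.9 CPM under SB505124, and at 81.5 and 55.4 CPM under TGFβ1. In both pairs the groups overlapped, because B73 was above B87 throughout, and the rise was seen within each line. The rise was 0.47 ± 0.10 in Smad4-off cells (adjusted p = 0.0278) and 0.34 ± 0.10 in Smad4-on cells (adjusted p = 0.0411), and neither passed without the line (0.447 and 0.416). The first did not pass without any 1 of the 4 Smad4-off libraries (0.0834 to 0.176). The second did not pass without the Smad4-on SB505124 library of B73 (0.237, with a log2 value of 0.21) or any 1 of the 4 TGFβ1 libraries (0.0696 to 0.217), nor in a fit to the 4 compared libraries alone (0.0644).

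As a share of the summed TspanC8 level in CPM per kilobase, *Tspan14* held 43.9% in B73 and 41.1% in B87 with Smad4 off under SB505124, and 36.7% and 44.3% with Smad4 on. Under TGFβ1 it held 59.6% and 56.8%, then 69.1% and 62.7%. *Tspan15* held 30.4% and 28.5%, then 40.4% and 22.8% under SB505124, and 19.7% and 15.7%, then 13.4% and 8.15% under TGFβ1. In every TGFβ1 library the share of *Tspan14* was above, and that of *Tspan15* below, every SB505124 library. *Tspan5* held 10.8% to 15.3% under SB505124 and 4.10% to 6.67% under TGFβ1, again without overlap. The summed level itself went from 54.1, 59.3 and 55.3 to 44.5 CPM per kilobase in B73 and from 41.5, 41.7 and 41.3 to 33.3 in B87, in the order Smad4 off and on under SB505124, then Smad4 off and on under TGFβ1. It was lowest with Smad4 on under TGFβ1 in both lines. The parts of a whole are tied, so a fall of some members raises the share of the rest.

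**Figure D4:**
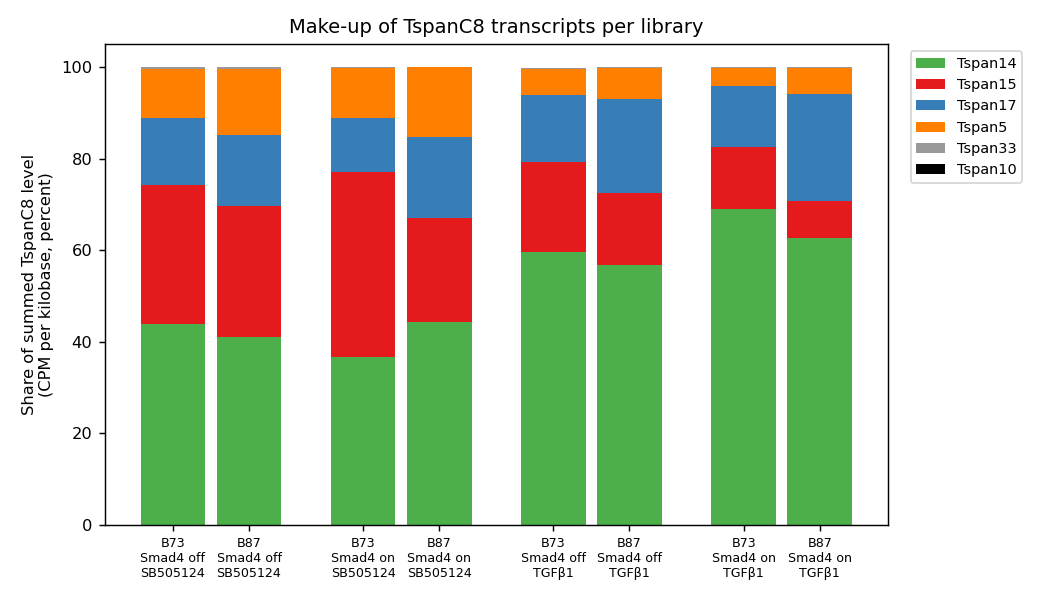
Share of each TspanC8 gene in the summed TspanC8 level (percent of CPM per kilobase) in each of the 8 libraries. Each bar is 1 library and adds up to the whole. *Tspan14* takes 36.7% to 44.3% under SB505124 and 56.8% to 69.1% under TGFβ1.

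Of the uroplakin pair, known from the plaques of the bladder surface, *Upk1b* fell with TGFβ1. It stood at 25.4 CPM in B73 and 42.0 CPM in B87 with Smad4 off under SB505124, and at 4.41 and 7.22 CPM under TGFβ1. With Smad4 on it stood at 19.2 and 22.8 CPM, then at 2.81 and 4.44 CPM. All 4 TGFβ1 libraries were below all 4 SB505124 libraries. The fall was 5.78-fold in Smad4-off cells (−2.53 ± 0.17, adjusted p = 0.000638) and 5.91-fold in Smad4-on cells (−2.56 ± 0.18, adjusted p = 0.000172). Both passed without the line (0.0423 and 0.0138) and with any library left out, and the interaction was −0.03 ± 0.23 (adjusted p = 0.980). With Smad4 on against off its log2 fold change was −0.68 ± 0.18 under TGFβ1 (adjusted p = 0.0760) and −0.64 ± 0.15 under SB505124 (adjusted p = 0.125). *Upk1a* stood at 0.250 to 1.07 CPM and passed in no comparison of groups.

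*Tspan13* fell with TGFβ1 in the same 2 comparisons. It stood at 15.5 CPM in B73 and 10.9 CPM in B87 with Smad4 off under SB505124, and at 4.07 and 2.34 CPM under TGFβ1. With Smad4 on it stood at 14.5 and 8.15 CPM, then at 2.25 and 0.918 CPM. All 4 TGFβ1 libraries were again below all 4 SB505124 libraries. The fall was 4.20-fold in Smad4-off cells (−2.07 ± 0.21, adjusted p = 0.00211, without the line 0.132) and 7.26-fold in Smad4-on cells (−2.86 ± 0.23, adjusted p = 0.000279, without the line 0.0262). Both passed with any library left out. With Smad4 on against off under TGFβ1 it was −1.05 ± 0.24 (adjusted p = 0.0504, in DESeq2 with the line 0.0333).

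*Tspan4*, known from migrasomes, the vesicles that form on the retraction fibres of moving cells, stood at 135 CPM in B73 and 159 CPM in B87 with Smad4 off under SB505124, and at 106 and 99.8 CPM under TGFβ1. With Smad4 on it stood at 156 and 178 CPM, then at 121 and 115 CPM. The 4 TGFβ1 libraries lay below the 4 SB505124 libraries. It fell by 0.51 ± 0.11 in Smad4-off cells (adjusted p = 0.0250) and by 0.50 ± 0.11 in Smad4-on cells (adjusted p = 0.0120). The first did not pass without the line (0.101), the Smad4-off SB505124 library of B87 (0.139) or the Smad4-off TGFβ1 library of B73 (0.0704) or B87 (0.244). The second passed without the line (0.0385), but not without the Smad4-on SB505124 (0.0857) or TGFβ1 (0.0843) library of B87. Exons of *Tspan4* share 292 bases with *Chid1* on the opposite strand.

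*Tspan9* stood at 76.9 CPM in B73 and 120 CPM in B87 with Smad4 on under SB505124, and at 107 and 291 CPM under TGFβ1. The groups overlapped, and the B87 library under TGFβ1 was far above the other 7, which ranged from 76.9 to 151 CPM. *Tspan9* rose by 0.94 ± 0.30 (adjusted p = 0.0488), but by only 0.31 (adjusted p = 0.309) without that library. It also did not pass without the line (0.198), in DESeq2 with the line (0.0779), with at least 10 counts required in every library (0.0538), or without either Smad4-on SB505124 library (0.169 for B73 and 0.188 for B87) or either Smad4-off TGFβ1 library (0.0686 and 0.0681). In Smad4-off cells its change was 0.53 ± 0.30 (adjusted p = 0.290).

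*Cd53*, a leukocyte tetraspanin, was found at low counts. It had 49 counts in B73 and 34 in B87 with Smad4 off under SB505124, and 20 and 12 under TGFβ1. With Smad4 on it had 22 and 41 counts under SB505124, and 2 and 3 under TGFβ1. The Smad4-on TGFβ1 libraries were lower than all others. Summed over the lines, 5 counts stood against 63, a ratio of 0.0864 after scaling for library size (95% interval 0.0271 to 0.212, exact binomial, counting error only). *Cd53* fell with TGFβ1 in Smad4-on cells (edgeR adjusted p = 0.00389, without the line 0.0116), and passed with any library left out. In Smad4-off cells the adjusted p was 0.0621. Summed leukocyte markers in the Smad4-on libraries were 0.250 to 0.378 CPM under SB505124 and 0.204 CPM in both lines under TGFβ1, and *Ptprc* was at or near 0 throughout.

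The remaining 7 detected genes passed in none of the 4 comparisons of groups in edgeR. These were *Tspan31*, *Tspan3*, *Tspan7*, *Tspan6*, *Tspan12* and *Tspan2*, and *Tspan33* of the TspanC8 genes. *Tspan31*, a neighbour of *Cdk4* on chromosome 10 with which its exons share 641 bases on the opposite strand, was at 44.9 to 51.0 CPM in SB505124 libraries and at 53.6 to 59.7 CPM in TGFβ1 libraries. Its groups did not overlap, but its changes of 0.27 ± 0.08 with Smad4 off (adjusted p = 0.0851) and 0.24 ± 0.08 with Smad4 on (adjusted p = 0.0639) did not pass. *Tspan3* ranged from 68.2 to 90.1 CPM.

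*Tspan7* went apart between the lines with Smad4 on against off under SB505124, up from 55.6 to 82.6 CPM in B73 but down from 48.8 to 34.8 CPM in B87. Its mean log2 fold change there was 0.08 ± 0.29, made of 0.57 in B73 and −0.49 in B87. *Tspan15* did the same, with 0.54 in B73 and −0.31 in B87 around a mean of 0.12 ± 0.19.

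Whether the Smad4 on against off change differed between the lines was tested over both treatments. None of 23 tetraspanins passed in edgeR, against 0.406% of all genes, although 4 had an unadjusted p under 0.05 and DESeq2 passed 2. These 4 were *Tspan8* (−0.63 ± 0.12, B87 minus B73, edgeR adjusted p = 0.106), *Tspan7* (−0.97 ± 0.20, 0.129), *Tspan15* (−0.63 ± 0.14, 0.169) and *Tspan9* (0.87 ± 0.26, 0.305). DESeq2 gave adjusted p of 0.00366 for *Tspan8* and 0.0153 for *Tspan7*. The same test for the effect of TGFβ1 passed 0 of 23 tetraspanins against 0.00% of all genes, with 1 at an unadjusted p under 0.05 (*Tspan4*, −0.29 ± 0.09) and 0 in DESeq2. For *Tspan8* the line difference of the TGFβ1 effect was 0.02 ± 0.28.

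The level itself differed between the lines for 10 of 23 tetraspanins (43.5%) against 18.6% of all genes, with 4 higher (8.92% of all genes) and 6 lower in B87 (9.68%). Against 8.37% of all genes in either direction, 3 of them (13.0%) were called, *Tspan6* and *Tspan2* higher (3.87% of all genes) and *Tspan12* lower in B87 (4.50%). Each line was 1 culture series, so this compares these lines and not kinds of tumor.

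*Tspan12*, a co-receptor of the norrin receptor Frizzled-4, was at 3.64 to 9.34 CPM in B73 libraries but at 0.0439 to 1.58 CPM in B87 libraries. Its log2 difference was −3.85 ± 0.45 (adjusted p = 0.00174). In B87 it had 1, 8, 4 and 31 counts, in the order Smad4 off and on under SB505124, then Smad4 off and on under TGFβ1. The ratio of B87 to B73 was 0.012 (95% interval 0.000299 to 0.0689, counting error only) in the first condition. In the last it was 0.169 (0.112 to 0.249), again from 1 library per line. In edgeR the line difference of the Smad4 on against off change (1.69 ± 0.94, adjusted p = 0.646) did not pass for *Tspan12*. Nor did that of the TGFβ1 effect (1.83 ± 0.79, adjusted p = 0.602). The lines did not overlap. *Tspan6* was at 0.594 to 1.41 CPM in B73 but at 4.37 to 7.19 CPM in B87, a log2 difference of 2.32 ± 0.22 (adjusted p = 0.000772). *Tspan2* was at 1.57 to 2.87 CPM in B73 but at 5.03 to 6.22 CPM in B87 (1.33 ± 0.18, adjusted p = 0.00346). Neither overlapped between the lines.

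Smaller line differences were found for *Tspan15* (−0.92 ± 0.14, adjusted p = 0.00509), *Tspan13* (−0.79 ± 0.15, 0.0127), *Tspan8* (−0.76 ± 0.13, 0.00883), *Tspan14* (−0.44 ± 0.07, 0.00673) and *Cd81* (−0.32 ± 0.07, 0.0259), lower in B87. *Upk1b* (0.57 ± 0.12, 0.0166) and *Cd82* (0.35 ± 0.09, 0.0378) were higher in B87. With a library left out, *Cd82* did not pass without any 1 of the 4 SB505124 libraries or the 2 Smad4-off TGFβ1 libraries (0.0580 to 0.148). *Cd81* did not pass without any Smad4-off library or either Smad4-on TGFβ1 library (0.0597 to 0.105), *Upk1b* without any Smad4-off library (0.0667 to 0.0721), and *Tspan13* without the Smad4-on SB505124 library of B73 (0.0607) or B87 (0.0588). The summed epithelial markers were lower and the summed fibroblast markers higher in B87, as given above, with *Col1a1* making up to 627 CPM, and their part in these differences was not tested.

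**Figure D5:**
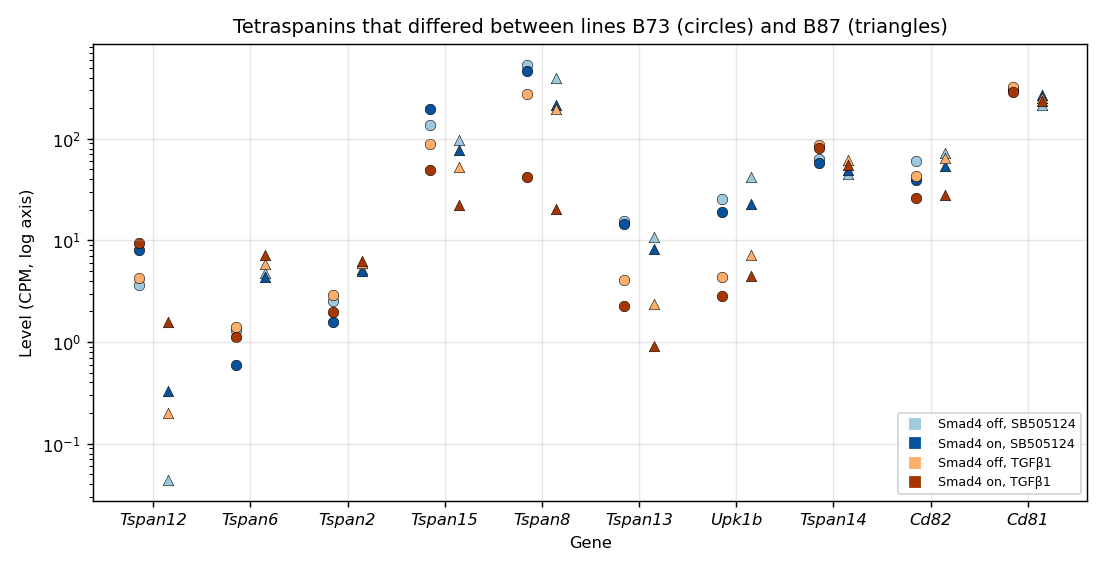
CPM (log axis) of the 10 tetraspanins that differed between B73 (circles) and B87 (triangles), with 1 point per library and colour for the group. *Tspan12*, *Tspan6* and *Tspan2* do not overlap between the lines, whereas *Tspan8* does, with 42.4 to 534 CPM in B73 beside 20.4 to 399 CPM in B87.

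Known partners of tetraspanins were described from a list of 48 genes, of which 45 were tested. With TGFβ1, 11 rose and 14 fell in Smad4-on cells (55.6% passed), and 7 rose and 6 fell in Smad4-off cells (28.9%), against the 33.2% and 13.2% of all genes given above. With Smad4 on against off, 1 rose and 2 fell under TGFβ1 (6.67%, against 6.80% of all genes), and 1 rose and 0 fell under SB505124 (2.22%, against 1.59%). No partner passed in the interaction in edgeR, with 9 at an unadjusted p under 0.05 and 1 in DESeq2.

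Of the 7 genes listed as the ADAM10 axis, 5 passed with TGFβ1 in Smad4-on cells (71.4%, against 33.2% of all genes), 2 higher and 3 lower. The list and the 5 include *Adam17*, which encodes a different protease. *Adam10* itself did not pass with TGFβ1, at −0.16 ± 0.14 with Smad4 on (adjusted p = 0.419) and 0.00 ± 0.14 with Smad4 off (adjusted p = 0.997). *Cd44* rose by 1.08 ± 0.14 (adjusted p = 0.00162) and *Notch2* by 0.39 ± 0.08 (adjusted p = 0.0128). *Cdh1*, a substrate of ADAM10, fell by 2.31 ± 0.46 (adjusted p = 0.00936, without the line 0.295), *Notch1* fell by 1.47 ± 0.17 (adjusted p = 0.000994), and *Adam17* fell by 0.32 ± 0.07 (adjusted p = 0.0167, without the line 0.0866). Of 12 tested integrin and immunoglobulin partners, 5 rose and 2 fell (58.3%, against the same 33.2%). *Itga2*, the collagen-binding integrin chain, rose by 3.20 ± 0.57 (adjusted p = 0.00618, without the line 0.0742) and *Itgav* by 1.53 ± 0.13 (adjusted p = 0.000345). *Itga3* (−0.39 ± 0.08, adjusted p = 0.0135, without the line 0.396) and *Itga6* (−0.40 ± 0.10, adjusted p = 0.0196), whose products pair with CD151, fell. With Smad4 off neither passed (−0.08 ± 0.08, adjusted p = 0.600, and −0.00 ± 0.10, adjusted p = 0.999). *Itgb1*, another integrin chain of the list, rose by 1.31 ± 0.08 with Smad4 on (adjusted p = 0.000119). With Smad4 off *Itgb1* rose by 0.92 ± 0.08 (adjusted p = 0.00133, without the line 0.0962). *Itgb5* rose by 1.01 ± 0.21 with Smad4 on (adjusted p = 0.0120, without the line 0.110) and by 1.25 ± 0.21 with Smad4 off (adjusted p = 0.0124, without the line 0.165).

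Of 12 genes of the extracellular vesicle machinery, 3 rose and 3 fell with TGFβ1 in Smad4-on cells, against 15.6% of all genes higher and 17.6% lower, and 2 rose and 2 fell in Smad4-off cells, against 6.96% and 6.24%. With Smad4 on, *Sdc4* rose by 0.75 ± 0.09 (adjusted p = 0.00111, without the line 0.0742), *Tsg101* by 0.59 ± 0.09 (adjusted p = 0.00283) and *Hgs* by 0.43 ± 0.08 (adjusted p = 0.00740). *Rab27a*, which acts in the docking of multivesicular bodies, fell by 2.50 ± 0.36 with Smad4 on (adjusted p = 0.00266) and by 1.55 ± 0.33 with Smad4 off (adjusted p = 0.0269, without the line 0.121). *Rab27b* fell by 1.03 ± 0.14 (adjusted p = 0.00208) and by 1.09 ± 0.14 (adjusted p = 0.00457, without the line 0.0663). Of the uroplakin partners *Upk2* and *Upk3a* were not tested, and *Upk3b* and *Upk3bl*, at low levels, fell in Smad4-off cells (adjusted p = 0.0295 and 0.0397, without the line 0.219 and 0.136). With Smad4 on, *Upk3bl* fell as well (adjusted p = 0.0257, without the line 0.0644), and *Upk3b* had an adjusted p of 0.0581. In DESeq2 with the line *Upk3bl* did not pass with Smad4 off (adjusted p = 0.109) or on (0.0757). DESeq2 gave no adjusted p for *Upk3b* with Smad4 off. *Adam10*, *Cd44*, *Notch1*, *Notch2*, *Adam17*, *Itga3*, *Itga6*, *Itgb1*, *Sdc4*, *Tsg101*, *Hgs*, *Upk3b* and *Upk3bl* were named after their values were seen.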

How the data were processed

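Of the alleles of the mouse model, 1 is not reported here. The authors made stranded libraries from poly(A) RNA, sequenced single-end reads of 75 bp, trimmed with Trimmomatic 0.36, aligned with STAR 2.5.3a to GRCm38 and counted with featureCounts 1.6.3 (versions from the submitters' processing notes). The deposited table holds raw counts per Ensembl gene, 1 column per library. Strand and multimapping settings were not stated, so counts over exons shared with opposite-strand genes or copies are less certain.

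Counts were tested with edgeR 4.0.16 in R 4.3.3 (TMM, filterByExpr, quasi-likelihood F-test, Benjamini-Hochberg over 14301 genes) with terms for the 4 groups and for the cell line. The study names DESeq2 and no covariate. The line, given in every sample title, paired libraries across groups, and deviations of the lines correlated at 0.642 to 0.774 over 6 pairs of groups. Standard errors were approximated from the fold change and the F statistic. Per-line changes used log2 CPM with a prior count of 2. A level of 3 counts corresponds to 0.125 to 0.162 CPM. Interval and floor cover counting error only. With the line in the model, p-values rest on how far the changes between groups disagree between these 2 lines. Without the line they rest on the spread between the lines as well.

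Lengths are merged GENCODE M21 exons, and promoters are RefSeq's. Members given in full passed in a comparison of groups or were among the 5 highest per length. Partners named were at most 4 called genes per comparison, by size, with the same sign in both lines and a mean log2 CPM of 1 or more. The members, gene lists and partners were chosen with earlier results of these data known. Alternatives were DESeq2 1.42.0, models without the line, RLE factors, other count filters, glmTreat, fits to the compared libraries and leaving out each library. Scripts were tested on simulated data.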

Additional observations from a re-analysis of the deposited data

Results flagged for a closer look

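The Smad4 on against off change of *Tspan8* differed between the treatments by −2.43 on the log2 scale, by a test of the interaction itself. *Tspan8* was lower with Smad4 on than off under TGFβ1 (−2.98), and its value under SB505124 was −0.55. The direction was the same in both lines. In edgeR the call did not hold without the line in the model or with most single libraries left out. In DESeq2 without the line the adjusted p was 0.0130, as given with the other values of this gene.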

How the results depend on the processing

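No single-gene value that passed in the main test turned direction under any alternative tried. For Smad4 on against off under TGFβ1, 4 tetraspanins passed, against 0 with no replicate block, 8 in DESeq2 with the line, 10 with no filter on low counts and 1 to 5 with 1 library left out. The 2 called there became 0 with no replicate block, 1 in DESeq2 with no replicate block, 4 in DESeq2 with the line, 5 with no filter, 1 in glmTreat against 2-fold and 1 to 3 with 1 library left out. Under SB505124 the count of 0 became 2 in DESeq2 with the line and 4 with no filter. For TGFβ1 against SB505124, the 12 in Smad4-on cells became 6 with no replicate block in edgeR and 10 with none in DESeq2. The 8 in Smad4-off cells became 2 with no replicate block, 5 in DESeq2 with no replicate block and 3 to 8 with 1 library left out, and the 3 called ranged from 2 to 5. The lowest, 3, was reached without the Smad4-off SB505124 library of B87 or either Smad4-off TGFβ1 library. In the interaction the 1 that passed became 0 with no replicate block, 2 in DESeq2 with no replicate block, 3 in DESeq2 with the line, 3 with no filter and 0 to 1 with 1 library left out, and the 1 called became 0 with no replicate block, 2 in DESeq2 with the line, 2 with no filter, 0 in glmTreat and 0 to 1 with 1 library left out. For the line difference of the Smad4 on against off change, 0 passed, against 2 in DESeq2 with the line, 4 with no filter and 0 to 1 with 1 library left out, and the 0 called ranged from 0 to 1. Of the single-gene values that passed, 24 of 35 no longer did in glmTreat, 17 of 25 with no replicate block in edgeR, 6 of 25 with none in DESeq2, and 69 of 280 with 1 library left out. Because glmTreat asks for a change beyond 2-fold, values within 2-fold could not pass there. Requiring 10 counts in every library ended 1 of 33, and *Cd53* and *Tspan12*, below that limit in some libraries, were not tested there. DESeq2 with the line and RLE size factors each ended 1 of 35, and a fit to the 4 compared libraries 1 of 24. The cause of the shifts under the other alternatives was not tested. Each group has 2 libraries and the model 3 residual degrees of freedom.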
